A study of Mus musculus with 2 samples.

Results

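Chemokine and chemoattractant receptors of spinal cord microglia were followed through 9 genes, Cx3cr1, Ccr1, Ccr2, Ccr6, Ccrl2, Cxcr4, Cxcr3, Cmklr1 and Fpr1, out of 35015 gene names on a mouse expression array. The members were taken as every probe that carries one of these gene names, 10 of 55669 probes, with 2 probes for Cx3cr1 and 1 for each of the other 8 genes. The cells were microglia, the macrophages that live in brain and spinal cord tissue, taken by sorting from spinal cords of atopic diathesis model mice and control mice, and total RNA of each group was hybridised to 1 array. An atopic diathesis is a predisposition to allergy. The labels call the control sample normal and the atopic diathesis sample activated. Both arrays share 1 slide, so the position on it and the group cannot be told apart. Strain, age, how the model was made and the number of mice in a sample are not given in the sources used here. With 1 array per group no difference below has a replicate check, and no test between the groups was possible.

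Chemoattractant receptors are heptahelical receptors that couple mainly to inhibitory G proteins and steer cells along gradients of a ligand. Released G protein subunits activate phosphoinositide 3-kinase and phospholipase C, and receptor kinases and arrestins then silence and internalise the occupied receptor. In the central nervous system Cx3cr1 is the best known microglial member: it binds fractalkine from neurons and is used as a marker of these cells. Ccr2 is best known from inflammatory monocytes, Cxcr3 from activated T and NK cells, and Fpr1 from neutrophils.

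What was measured for each receptor is the binding of labelled cRNA to a 60-base oligonucleotide. The first 30 bases are shown for the probes of the 5 receptors that were detected on at least 1 array, because each value below is the reading of that oligonucleotide and not of the whole transcript. Letters in capitals mark the start of a run of 55 bases that the second Cx3cr1 probe shares with a further probe of another name, which is shown with it.
Cx3cr1, first probe: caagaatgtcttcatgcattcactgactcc
Cx3cr1, second probe: cgtgcCTAGAGTGTGTCTATCCCACTTGTA
Probe of another name: CTAGAGTGTGTCTATCCCACTTGTAATTCT
Ccrl2: gcaggaggcatctcacaaatgcaagtataa
Ccr6: acacgagagcacaaagcaacattgccccaa
Cxcr3: gccaggcgttgtcagcactgaatgtgccca
Cxcr4: aggaagaaactgaacattccagaatgtgtg
Apart from that overlap, the longest run that any member probe shared with a probe of another gene name was 14 to 16 bases. The GC content of the 10 probes ran from 21.7% for Ccr1 to 45.0% for Cxcr3, Cmklr1 and Fpr1.

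In mm9, the build of the files, the Cx3cr1 probes lie at chr9:119959018-119959077 and chr9:119957811-119957870 on the minus strand. Also on chromosome 9 are the probes of Ccrl2 at chr9:110957397-110957456 and Ccr1 at chr9:123877790-123877849, both on the minus strand, and of Ccr2 at chr9:124022948-124023007 on the plus strand. The other probes lie at chr17:8449933-8449992 (Ccr6, plus strand), chr1:130485079-130485138 (Cxcr4, minus), chrX:98926920-98926979 (Cxcr3, minus), chr5:114063415-114063474 (Cmklr1, minus) and chr17:18013609-18013668 (Fpr1, minus). The files name the gene of each probe. Exon and untranslated region boundaries in this build were not used here.

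Of the 9 receptor genes, 4 (Cx3cr1, Ccr6, Ccrl2 and Cxcr3) were detected on each of the arrays, meaning that the scanner software marked a probe as well above background. Over all gene names the share was 26.3%. Cxcr4 was detected only in atopic diathesis microglia, a state shared by 8.06% of gene names. The remaining 4 receptors, Ccr1, Ccr2, Cmklr1 and Fpr1, were not well above background in either sample, as were 61.2% of gene names. No member was detected on the control array only, where the share over all gene names was 4.13%.

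Differences are given as the log2 processed signal of atopic diathesis minus that of control, less the median of that difference over the 9220 genes measured on both arrays (-0.03). None of the 4 measured receptors lay at least 2-fold above this median gene and 1, Cxcr3, lay at least 2-fold below it. Among all measured genes 17.3% lay as far above and 15.6% as far below, 32.9% in either direction. The median of the 4 receptors was -0.16 on the log2 scale, with a range from -1.30 to 0.45, against 0 for all measured genes, whose quartiles were -0.57 and 0.63. The spot intervals below come from the error between spots of probes printed 10 times on an array. The scanner software's own error of each spot is printed with the signals and does not enter these intervals. The error between spots depended on brightness: the 95% interval of a log2 difference was ±0.59 for a mean signal under 100 (37 probes), ±0.29 between 100 and 1000 (48 probes) and ±0.15 from 1000 upwards (18 probes). These intervals hold nothing of the variation from animal to animal or from sort to sort.

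**Figure D1:**
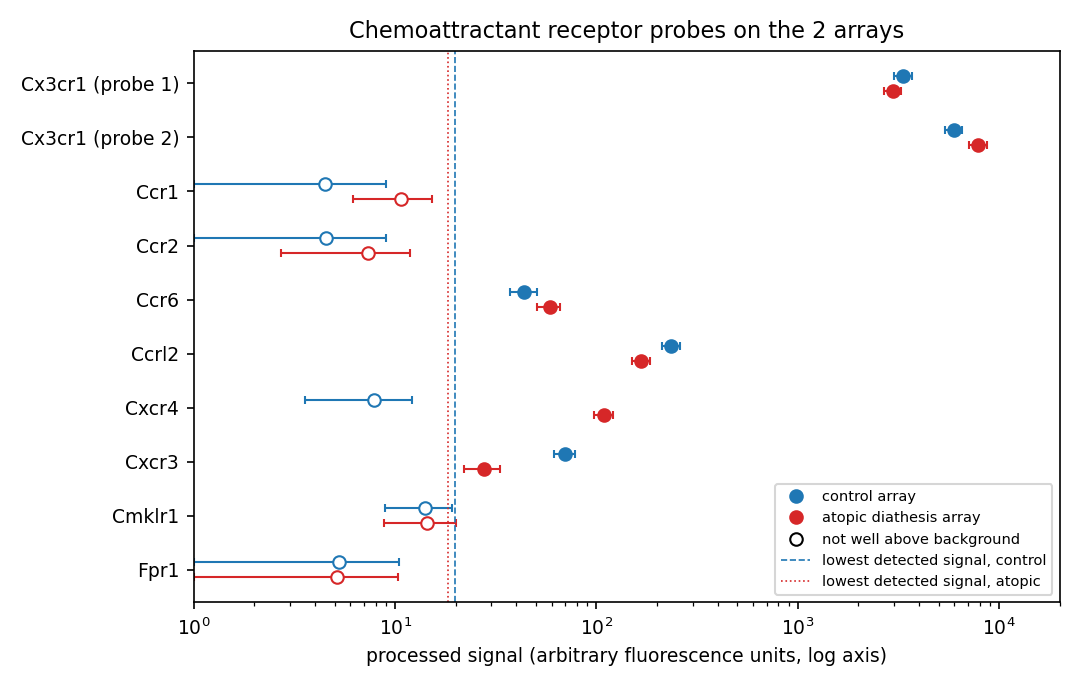
Processed signal of the 10 receptor probes, 1 point per array, on a log axis in arbitrary fluorescence units. Bars are the scanner software's error of the spot (cut at the axis limit where they reach below it), open points are not well above background and vertical lines mark the lowest signal well above background on each array (19.8 in control, 18.2 in atopic diathesis); Cxcr4 is the only receptor with 1 open and 1 filled point.

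Cx3cr1, the receptor of the membrane-bound chemokine fractalkine, was bright on both arrays, but its probes did not move alike. The first probe read 3344 ± 334 in control and 2964 ± 296 in atopic diathesis microglia (scanner error of the spot), a log2 difference of -0.14 with a spot interval of -0.29 to 0.01. The second probe read 5961 ± 596 and 7875 ± 788, a log2 difference of 0.43 with an interval of 0.29 to 0.58. The second probe was thus brighter on the atopic diathesis array, whereas the interval of the first included 0. Their spot intervals did not overlap. At this brightness the scanner error is larger than the error between spots, and the spot intervals leave it out. The probe of another name, whose sequence is nearly that of the second, lies at chr9:119957806-119957865. It thus overlaps the second Cx3cr1 probe in the genome. It read 4263 ± 426 and 5761 ± 576, a difference of 0.47 ± 0.15. It was therefore brighter on the atopic diathesis array by as much as its near copy.

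The Cx3cr1 probes start 1207 bases apart in the genome and also 1207 bases apart in the transcript, so no intron lies between them. Their differences were 0.58 apart. Among 109 genes with 2 measured probes of a mean signal of 1000 or more, 17.4% had probes at least this far apart, and the median gap was 0.21. In 24.8% of these genes the probes lay on opposite sides of the median gene, as those of Cx3cr1 did. Averaged over both named probes, the Cx3cr1 difference was 0.15 (1.11-fold), within 2-fold. Its direction depended on the processing. It lay above the median gene under 10 of 12 alternatives, at 0.43 with the brighter probe only, and below it under 2. Those 2 were -0.35 when the arrays were scaled to the 75th percentile of all probes, and -0.04 with probes detected on at least 1 array.

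Ccrl2, an atypical receptor that binds chemerin and presents it to other receptors without signalling by G proteins, read 235 ± 24.1 in control and 167 ± 17.4 in atopic diathesis microglia. Its difference was -0.46 (spot interval -0.75 to -0.17), within 2-fold of the median gene, and it lay below the median gene under all 12 processing alternatives (-0.96 to -0.24). In its signal quintile, with mean signals from 125 to 281, 68.7% of measured genes differed by at least as much in either direction. Cmklr1, the signalling receptor of chemerin, read 14.1 ± 5.17 and 14.5 ± 5.63 and was not well above background in either sample. Its ligand gene Rarres2, which encodes chemerin, was not well above background either, at 4.31 and 4.27.

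Cxcr3, the receptor of the interferon-induced chemokines Cxcl9, Cxcl10 and Cxcl11, was the 1 measured receptor past 2-fold. Its signal was 69.8 ± 8.46 in control and 27.6 ± 5.57 in atopic diathesis microglia, a log2 difference of -1.30 (spot interval -1.89 to -0.72), or 2.47-fold lower. Both signals are dim: the probe falls in the lowest quintile of mean signal (20.3 to 60.9), where 7.70% of measured genes were at least 2-fold lower and 12.4% differed by at least as much as Cxcr3 in either direction. Differences in this quintile have a narrow range because both signals must be above background. Over all measured genes 24.2% differed by at least as much as Cxcr3. Cxcr3 lay below the median gene under all 12 alternatives and past 2-fold under 10 of them. It came to -0.53 with normexp background correction and -0.42 with uncorrected signals, within 2-fold, and the cause was not tested. The authors' deposited table holds 79.0 for control and 23.8 for atopic diathesis.

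T cell and NK cell markers are given beside Cxcr3 because these cells carry the receptor. Of 12 T cell markers 1 was measured, Cd4, at 378 and 304. The CD3 chain genes Cd3d, Cd3e and Cd3g were not well above background in either sample. The summed signal of the T cell list was 459 in control and 396 in atopic diathesis microglia. Of 9 NK cell markers 2 were measured, with log2 differences of 0.20 for Prf1, encoding perforin, and -0.91 for Nkg7, a cytotoxic granule membrane protein, and the list summed to 254 and 217. Their part in the Cxcr3 difference was not tested. Of the ligands of Cxcr3, Cxcl11 read 11991 and 10752 (-0.12), Cxcl9 was detected in the atopic diathesis sample alone, at 21.4, and Cxcl10 on neither array.

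Cxcr4, the receptor of the stromal chemokine Cxcl12 that retains and guides many leukocytes, was the 1 receptor well above background on a single array. A less strict flag of the software, positive and significantly above background, marked it on both arrays. Its probe read 7.83 ± 4.26 in control, below the lowest signal well above background there (19.8), and 109 ± 11.7 in atopic diathesis microglia. Taking that lowest signal in place of the control reading, Cxcr4 was at least 5.64-fold higher in atopic diathesis microglia. Such bounds were common: of 2821 genes that only the atopic diathesis array detected, 23.3% had a bound at least as high, and of the 1447 detected on the control array only, 20.5% had one in the other direction. The bound was smaller under other processing, at 3.99-fold when scaled to the 75th percentile of all probes, 2.19-fold with normexp and 1.92-fold with uncorrected signals. Before background subtraction the spot read 92.2 in control and 198 in atopic diathesis, over local backgrounds of 53.0 and 52.5. The authors' deposited table holds 9.57 and 99.3.

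Over the 13 marker lists, 7 of 115 markers on the array (6.09%) shared the detection state of Cxcr4, against 8.06% of all gene names. Detected only in atopic diathesis were 1 of 6 astrocyte markers (Gja1, at least 12.5-fold), 2 of 6 oligodendrocyte markers (Cldn11, at least 15.6-fold, and Mag, at least 2.53-fold), 1 of 6 endothelial markers (Pecam1, at least 6.57-fold), 1 of 8 B cell markers (Cd79b), 1 of 9 monocyte markers (Nr4a1) and 1 of 12 mast cell, basophil and eosinophil markers (Mcpt4, at least 2.92-fold). The summed signal was 302 in control and 572 in atopic diathesis for the astrocyte list, 995 and 1113 for oligodendrocytes, and 352 and 157 for endothelium, whose marker Flt1, detected in the control sample alone, was at least 17.6-fold lower in atopic diathesis. For B cells it was 2778 and 2812, and for mast cells, basophils and eosinophils 341 and 774. Their part in the Cxcr4 reading was not tested. In bulk RNA, more cells of a type and more RNA per cell cannot be told apart. The ligand gene Cxcl12 was not well above background in either sample.

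Ccr6, the receptor of Ccl20, read 43.8 ± 6.54 in control and 58.5 ± 7.55 in atopic diathesis microglia. The difference of 0.45 (spot interval -0.14 to 1.03) was smaller than its spot interval and within 2-fold. It lay above the median gene under 11 of 12 alternatives and at -0.05 when scaled to the 75th percentile of all probes. In the authors' deposited table the values were 51.2 and 51.1, alike on both arrays before centring. Centred on the median measured gene, that table gave a difference of 0.17. Ccl20 was not well above background in either sample. Of 8 B cell markers, a cell type known for Ccr6, 3 were measured and all lay within 2-fold (0.02 to 0.29), with Cd79b detected only in atopic diathesis.

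**Figure D2:**
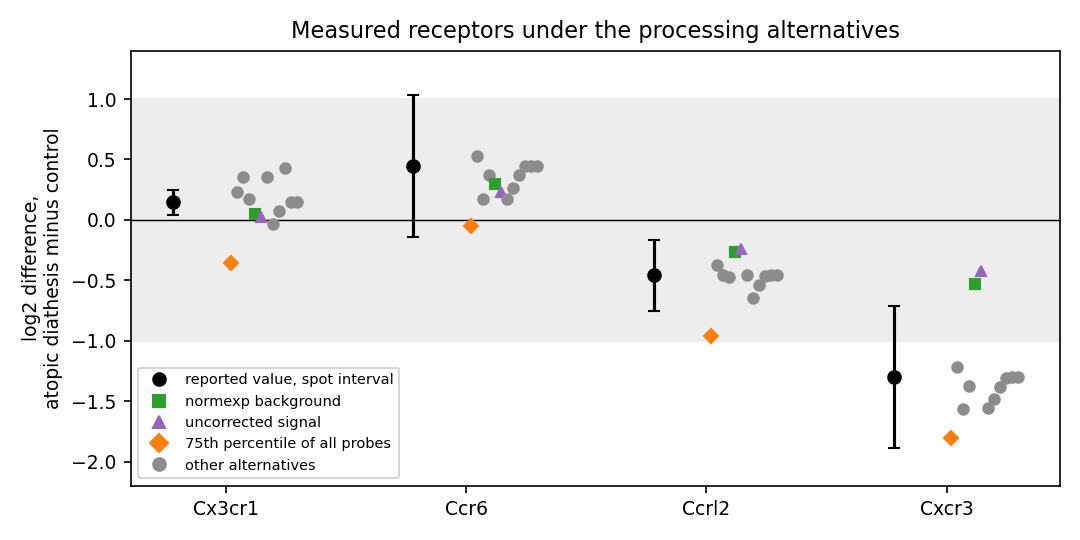
Log2 difference (atopic diathesis minus control) of the 4 receptors measured on both arrays. Black points are the reported values with the 95% spot interval, other points the 12 processing alternatives, and the grey band is within 2-fold of the median gene; Cxcr3 lies below the band except with normexp (-0.53) and uncorrected signals (-0.42).

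Ccr1, a receptor of Ccl3 and Ccl5, and Ccr2, the receptor of Ccl2, were not well above background in either sample. Ccr1 read 4.51 in control and 10.7 ± 4.55 in atopic diathesis microglia, and Ccr2 read 4.51 and 7.30 ± 4.59. Both control readings are surrogate values that the software sets for spots it cannot tell from background. On the less strict flag, positive and significantly above background, both were detected on the atopic diathesis array and not on the control array. That flag marked 52.1% of all probes in control and 61.1% in atopic diathesis. Under it 6 of the 9 receptors were detected in control and 8 in atopic diathesis, with Cxcr4 and Cmklr1 detected on both arrays. Fpr1, the high-affinity formyl peptide receptor, had surrogate values on both arrays, 5.25 and 5.17, and was detected under neither flag.

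Markers of the leukocytes known for Ccr2 and Fpr1 are given beside the share over all gene names. Of those, 61.2% were not well above background in either sample. Of 9 monocyte markers on the array, 6 were not well above background in either sample, Ly6c1 was 2.04-fold lower (past 2-fold under 7 of 12 alternatives, and at 0.52 with no background filter and 0.42 with probes detected on at least 1 array) and Ms4a4c read 96707 and 97602. The monocyte list summed to 97005 and 97797. Of 13 neutrophil markers 12 were undetected, S100a8, S100a9 and Ly6g included. The other, Csf3r, read 19916 and 19649 (0.01), which makes up nearly all of the list's summed 19996 and 19744. Ligands of Ccr1 and Ccr2 were mixed in detection. Ccl3 read 9642 and 11214 (0.25) and Ccl2 4282 and 4333 (0.05), whereas Ccl5, Ccl7 and Ccl8 were detected on neither array. Other measured chemokines of the ligand list lay below the median gene and within 2-fold: Ccl6 (-0.89), Ccl9 (-0.71), Ccl12 (-0.49) and Ccl4 (-0.14).

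The labelled cell type was checked against its markers. All 12 microglia markers were measured and within 2-fold (-0.72 to 0.21), summing to 98324 in control and 86081 in atopic diathesis, and none of 8 border macrophage markers was well above background in either sample (summed 38.2 and 36.8). Of 7 neuron markers 1 was measured, Snap25, at 82155 and 84015, and of 7 dendritic cell markers 1, Itgax (0.16). Siglecf, listed with the eosinophil markers, was 2.51-fold higher, past 2-fold under 9 of 12 alternatives. No spot was saturated, and 24.1% of probes in control and 27.6% in atopic diathesis were well above background.

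**Figure D3:**
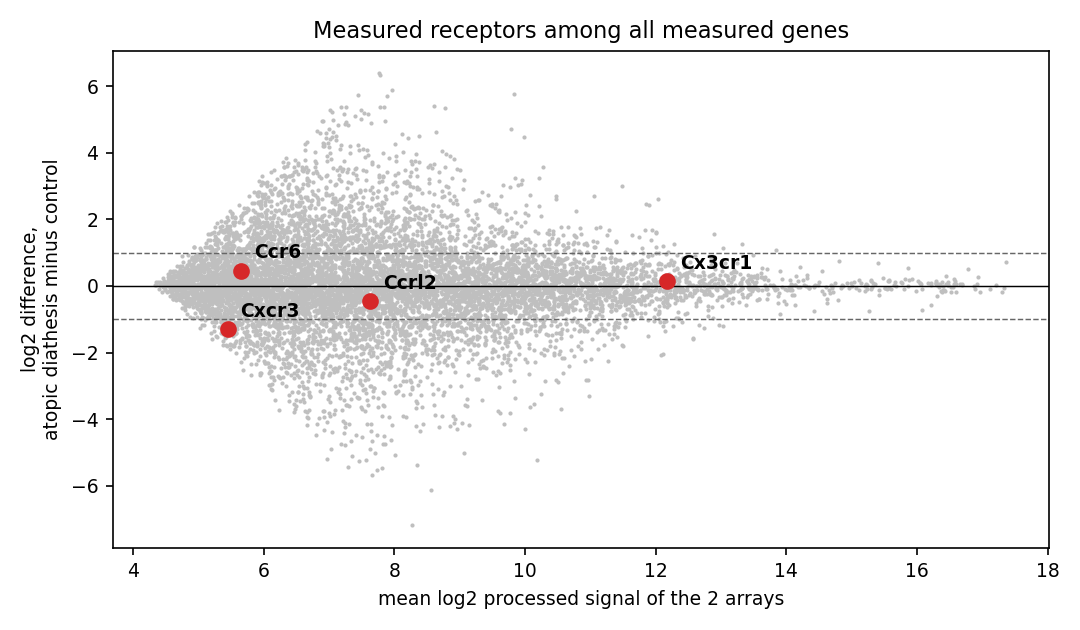
All 9220 genes measured on both arrays, by mean log2 processed signal (x) and log2 difference, atopic diathesis minus control (y), with the 4 measured receptors in red. Dashed lines mark 2-fold, and of the receptors only Cxcr3 (-1.30) lies beyond them; genes at the left have a narrow range because both signals must be above background.

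The receptors' wider pathway was described by 6 lists with 98 genes on the array. Of the 47 measured, 8 (17.0%) lay 2-fold or more above the median gene and 7 (14.9%) as far below, near the 17.3% and 15.6% of all measured genes, and their median was 0.09. A further 8 of the 98 were detected only in atopic diathesis, 4 on the control array only and 39 on neither. Over all gene names these shares were 8.06%, 4.13% and 61.2%. Scaling by the 75th percentile of all probes gave 3 higher and 12 lower, and moved the share of higher genes among all those past 2-fold from 52.6% to 28.3%.

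Few other chemokine receptors were detected. Of 13 such genes 12 were detected on neither array, against 61.2% of all gene names. All 4 atypical receptors, Ackr1 to Ackr4, were not well above background in either sample. Among 15 other chemoattractant receptors on the array, 5 were measured. C5ar1, the receptor of complement fragment C5a, read 840 and 110 and was 7.44-fold lower, past 2-fold under all 12 alternatives. Gpr183, an oxysterol receptor that guides immune cells, read 653 and 1708 and was 2.67-fold higher, past 2-fold under 11 of 12. The complement receptor C3ar1 (0.09) and the purinergic receptor P2ry12 (-0.05) were nearest to the median gene. Ptafr, the receptor of platelet-activating factor, and Ptgdr2, the type 2 prostaglandin D2 receptor, were detected only in atopic diathesis, like Cxcr4, at least 10.6-fold and 2.91-fold higher. Their signals were 11.2 and 204 for Ptafr and 5.04 and 56.3 for Ptgdr2. Both were named after their values were seen.

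Most measured ligand genes lay within 2-fold. Of 18, 8 were measured and 7 of these lay within 2-fold (list median -0.32). Over all measured genes 32.9% lay past 2-fold in either direction. Mif, a cytokine that also binds Cxcr4, read 549 and 179 over its 4 measured probes and fell by 1.58 on the log2 scale, past 2-fold under all 12 alternatives. The fractalkine gene Cx3cl1, ligand of Cx3cr1, was detected in the atopic diathesis sample alone, at 21.8 against 9.07 in control, a bound of 1.13-fold. Anxa1, whose protein acts on formyl peptide receptors, was not well above background in either sample.

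Signalling genes lay on both sides of the median gene. Of 28 G protein subunits and effectors, 20 were measured, 4 of them 2-fold or more above the median gene and 5 as far below. The shares over all measured genes were 17.3% and 15.6%. Gng12, a G protein gamma subunit, read 27.7 and 443 and was 16.4-fold higher, on 1 of its 2 probes and near background in control. With probes detected on at least 1 array it came to 0.48, and with no background filter to 0.59. Tln1, encoding the integrin activator talin, read 442 and 38.3, 11.3-fold lower, also on 1 of its 2 probes. It stayed past 2-fold under all 12 alternatives, at -1.52 with no background filter, -2.36 with normexp and -2.19 with uncorrected signals. Plcb3, a phospholipase C activated by G proteins, read 4296 and 879, 4.78-fold lower. Gnb1 (-0.09) and Gng5 (0.11), G protein beta and gamma subunits, were nearest to the median gene. Pik3r5 (1.45) and Pik3r6 (1.74), the adaptor subunits of phosphoinositide 3-kinase gamma, were higher, while its catalytic subunit Pik3cg lay at 0.44. All 3 were named after their values were seen. The adaptor calls were lost with normexp (0.83 for Pik3r5 and 0.73 for Pik3r6) and with uncorrected signals (0.74 and 0.66), and that of Pik3r5 also when scaled to the 75th percentile of all probes (0.95).

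Of 20 genes of receptor desensitisation and trafficking, 13 were measured, 3 of them 2-fold or more above the median gene and none as far below. Over all measured genes the shares were 17.3% and 15.6%. By the gene names used here, a further 2 genes were detected only in atopic diathesis, 1 of them (Grk3) with a bound of at least 2-fold higher. The state of Grk3 holds for 1 probe only. Under Adrbk2, an older symbol of Grk3 that was not matched to it, the difference was measured on both arrays, at -0.02. Detected on the control array only was 1 gene, with a bound of at least 2-fold lower in atopic diathesis. Over all gene names 8.06% were detected only in atopic diathesis and 4.13% only in control. Ap2a1, a subunit of the clathrin adaptor complex, read 42.6 and 304, 7.30-fold higher, with a log2 difference of 2.87 that came to 1.87 with normexp and 1.70 with uncorrected signals. Gpsm3, a regulator of inhibitory G protein signalling, read 288 and 737 (2.62-fold higher), and the deubiquitinase gene Usp8 read 88.5 and 205 (2.37-fold higher). Gpsm3 was past 2-fold under 11 of 12 alternatives (0.89 when scaled to the 75th percentile of all probes). Usp8 was past it under 9, and came to 0.74 on that scale, 0.79 with normexp and 0.72 with uncorrected signals. Arrb2, the arrestin that internalises many chemokine receptors, lay at -0.17, and the ubiquitin ligase Itch, which marks Cxcr4 for degradation, at -0.27. The list's median was 0.62.

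**Figure D4:**
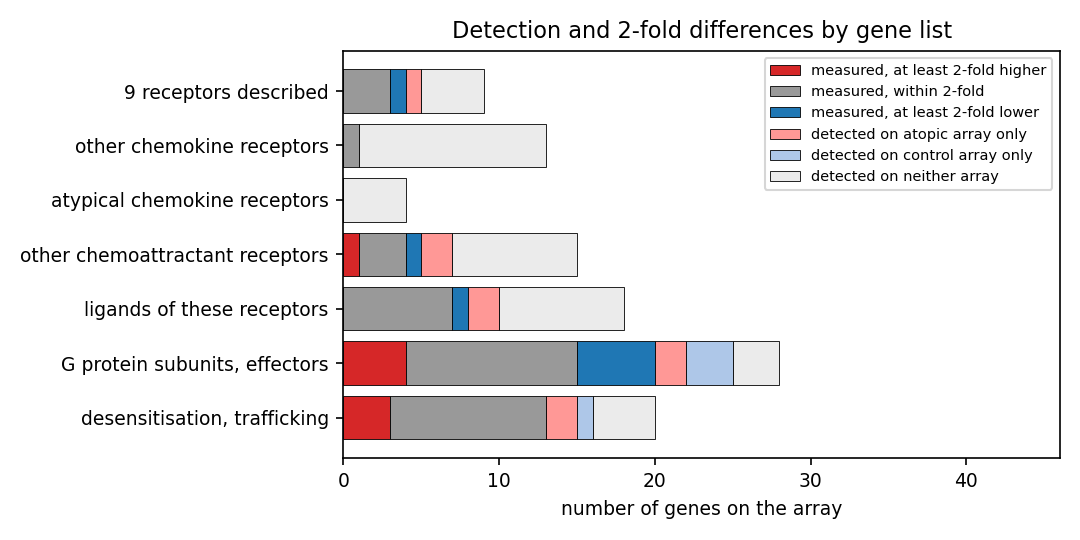
Number of genes on the array (x) in the 9 receptors and the 6 pathway lists, split by detection and by 2-fold difference from the median measured gene. Ackr1 to Ackr4 and 12 of 13 other chemokine receptors were detected on neither array.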

How the data were processed

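Total RNA of sorted microglia was labelled with Cy3 after a low-input amplification, per the labels' protocols. The deposited scanner files hold intensity per spot on a linear scale, background-subtracted by Agilent Feature Extraction (10.7.1.1 per the file headers, 9.5.1.1 per the submitters' processing notes). The flags and the p-value against background in these deposited files are the software's own. The authors' deposited series table holds 1 intensity per probe. Its columns have equal medians (6.64) and sorted values equal within 0.01 on the log2 scale, and its normalization and centring are not given in the sources used here.

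Control spots (3671) and outlier spots (136 and 122) were left out, and log2 signals of a probe's spots were averaged. A probe was well above background where at least 50% of its spots carried that flag. Genes with such a probe on each array were measured, at the average of those probes. Of 55669 probes, 27225 took their name from RefSeq (GRCm38.p6, names only). All values were centred on the median measured gene, since the 75th percentile of all probes (20.7 and 28.6) falls among dim probes. Depth has no meaning for arrays, and the number of arrays, 1 per group, limits the precision. Members and gene lists were chosen with earlier results of these data known. Named were all members and, per pathway list, up to 3 genes with the largest difference past 2-fold and up to 2 nearest to the median gene. 1 gene that this rule selects is not reported here. Summed list signals use each gene's brightest probe. The summary was tested on simulated data. Python 3.11.15, pandas 2.3.3, R 4.3.3 and limma 3.58.1 (normexp, offset 50) were used. Alternatives covered scaling, background, filters, probe choice, outlier spots and the series table.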

Additional observations from a re-analysis of the deposited data

How the results depend on the processing

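With the 75th percentile of all probes as the scale, the median of the measured receptors was -0.66, and 3 other pathway genes were higher and 12 lower. With normexp and with uncorrected signals alike, 0 receptors were at least 2-fold lower. Other pathway genes at least 2-fold higher then numbered 5, and 7 were as far lower. With genes kept if at least 1 array detected them, 1 receptor (Cxcr4, 3.65) was at least 2-fold higher and 1 as far lower. Under this filter 14 other pathway genes were higher and 14 lower. With no background filter, 2 receptors (Cxcr4, 3.75, and Ccr1, 1.20) and 14 other pathway genes were at least 2-fold higher. As far lower were 1 receptor and 10 other pathway genes. Among all genes past 2-fold, 64.6% were higher without the filter, against 52.6% in the reported values. Both filters let in readings near background. Under the less strict detection flag, 8 receptors were detected in atopic diathesis. The other alternatives, namely quantile normalization, loess, scaling by detected probes, the deposited table, the brightest probe, kept outlier spots and matching by accession, left the counts of receptors and of other pathway genes within 1.5 times. Matching by accession added 0 probes to the members. No called receptor changed direction. No paired analysis was possible because each group holds 1 array, and leaving out a replicate was not possible for the same reason. Differences under the spot interval, as for Ccr6, are not detectable at this signal over background.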
